A study of Arabidopsis thaliana with 6 samples.

Results

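Of the 12573 nuclear genes to which the peaks of 4 anti-FLAG ChIP-seq libraries were assigned, 113 are described as a UDP-glycosyltransferase or a glutathione S-transferase, and these 113 genes are the subject here. They were chosen by the words of the gene description alone, whichever library the peak came from, and comprise 96 UDP-glycosyltransferase (UGT) and 17 glutathione S-transferase (GST) genes. A gene of either family with no peak in any library is not among them. The descriptions name the best protein match, so 8 of the 113 are long non-coding RNA loci that lie at or beside a UGT gene. Another, AT5G59570, is BOA, a MYB-type clock transcription factor described as UGT76E1, and its 1 peak, in CND1-FLAG replicate 1, had a fold enrichment of 2.03.

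The chromatin came from Arabidopsis thaliana seedlings fixed with 1% formaldehyde for 10 minutes. The tagged plants carried pCND1-Flag in the cnd1-3 background, and the control plants were Col-0, which has no FLAG tag. Each genotype gave 2 ChIP libraries and 1 input, which makes 6 samples, and the peaks of the 4 ChIP libraries are compared here. The series title places CND1 in the upkeep of the nuclear and chloroplast genomes. The labels give neither the seedlings' age nor whether the tagged plants are 1 line, what drives the tagged protein beyond the name pCND1, nor whether the replicate libraries stem from different plants. Any spread between them may therefore be technical. The genotypes differ in the cnd1-3 allele and the transgene as well as the tag, and these cannot be told apart.

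UGTs move a sugar from a UDP-sugar onto small molecules such as hormones, flavonoids, phenolic acids and foreign compounds, which alters their activity, solubility and storage. GSTs join glutathione to reactive or foreign compounds or carry such molecules, and transporters then move many conjugates into the vacuole. Both families are large in plants and lie partly in tandem arrays of similar copies. Tau and phi GSTs and several UGTs are known for their induction by wounding, pathogens, salicylate, oxylipins and chemicals.

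Fold enrichment throughout is the authors' value for a peak summit over its local background. The fragments behind a summit were worked out from its fold enrichment and p-value. The median summit rested on 82 and 75 fragments in CND1-FLAG replicates 1 and 2, where the local background gave 41.9 and 38.4. In Col-0 replicates 1 and 2 the median summit rested on 131 fragments each, where the background gave 77.9 and 78.5. The Col-0 libraries were thus the deeper ones, and equal folds of the genotypes rest on unequal numbers of fragments. Intervals below are 95% Poisson intervals of the fragments with the background held fixed. They cover counting error only, and a summit is the highest point of its peak, so its fold lies high within its noise.

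Of the 113 genes, 77 and 76 had a peak in CND1-FLAG replicates 1 and 2, and 51 and 52 had one in Col-0 replicates 1 and 2. Both tagged libraries lay above both Col-0 libraries. Of the members, 68.1% and 67.3% were thus in the tagged lists, compared with 45.1% and 46.0% for Col-0. Over all assigned genes the shares were 78%, 66.1%, 41.3% and 39% in the same order. Tagged plants had a mean of 76.5 ± 0.707 such genes and Col-0 plants one of 51.5 ± 0.707 (SD over 2 libraries of each), which is a difference of 25 genes. The ratio of the means was 1.49 for the members and 1.79 for all nuclear genes. An exact permutation test of this difference (two-sided) returned p = 0.333, and no smaller p is possible for 2 libraries against 2. The difference did not hold once each list was kept to its best 5722 peaks: 50, 48, 47 and 52 members then had a peak, a difference of -0.5 genes (exact permutation p = 1).

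Among UGT genes, 66 and 64 had a tagged peak while 46 and 43 had a Col-0 peak. Among GST genes these numbers were 11 and 12 against 5 and 9. Peaks were present in a single list for 29 of the 113 members, in 2 lists for 46, in 3 lists for 17 and in all 4 lists for 21. In percent these were 25.7%, 40.7%, 15% and 18.6% of the members, against 31.4%, 32.7%, 16.1% and 19.8% of all assigned genes. No Col-0 list held a peak for 45 members (39.8% against 46.8% of all), and no tagged list held one for 21 (18.6% against 11.2%).

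Peaks that overlapped by at least 1 bp across the 4 lists were merged to regions, and 141 of the 17220 nuclear regions belonged to members. Regions with a peak of each CND1-FLAG list but none of Col-0 are called tagged-specific here. Those with a peak of each CND1-FLAG list and of 1 or both Col-0 lists are called shared. Tagged-specific regions numbered 32, or 22.7% of the member regions, against 23.3% of all nuclear regions. Shared regions numbered 40, or 28.4%, against 23.4% of all. A further 10 regions, 7.09%, were called in both Col-0 lists and in no tagged list, against 3.33% of all. The remaining regions were held by 1 tagged list alone (25 regions, 17.7% against 30.2%), by 1 tagged list with Col-0 (19, 13.5% against 9.52%) or by 1 Col-0 list alone (15, 10.6% against 10.2%). The tagged-specific share of the members was thus near that of all regions, and no test was made of the other differences.

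**Figure D1:**
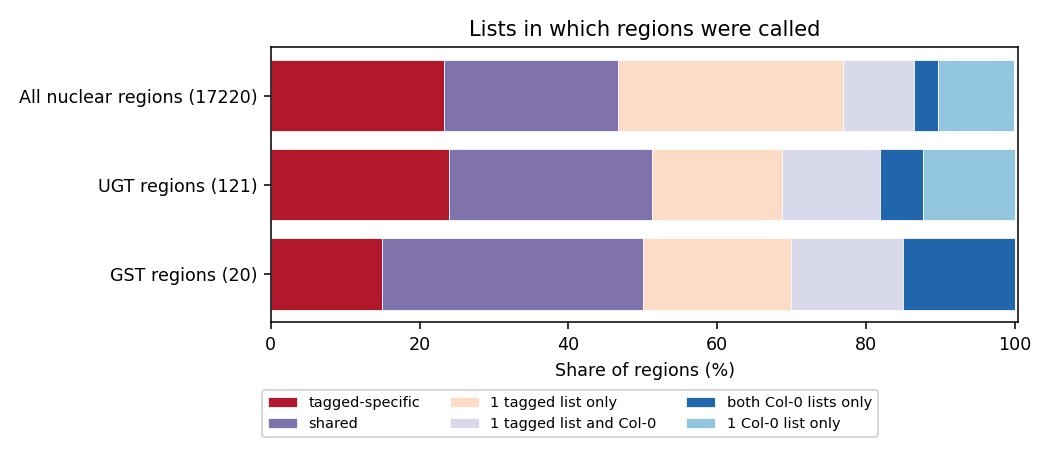
Stacked bars give the share of merged regions, in percent, by the lists that called them, for all 17220 nuclear regions, the 121 UGT regions and the 20 GST regions. Tagged-specific regions make up 23.3%, 24% and 15% of the bars, and regions of both Col-0 lists only make up 3.33%, 5.79% and 15%.

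By gene, 31 members had a tagged-specific region, 27.4% against 29.3% of all assigned genes. A shared region was found at 38 members, 33.6% against 30.7%. With lists of equal length these numbers were 12 and 22 members. Over all nuclear regions, tagged-specific ones then numbered 1610 against 4011 in the full lists, and shared ones 1845 against 4038. In the full lists, other metabolic families gave like values. Of 127 cytochrome P450 genes, 38 (29.9%) had a tagged-specific and 37 (29.1%) a shared region, and of 55 ABC transporter genes 16 (29.1%) and 15 (27.3%) did. In all, 64 members had a region of both tagged lists, 56.6% against 56% of all assigned genes, and 5 of these, UGT71C4, UGT72B1, GSTF2, UGT71B5 and UGT73B3, had both kinds.

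The strongest shared region of the families lay by UGT76E7 (AT5G38040), a member of a UGT group with several tandem copies. It spanned chr5:15183284-15184266 (TAIR10, as are all positions here), with its summit 1177 bp before the start of UGT76E7 and within the neighbouring locus AT5G38037. Its fold enrichment was 4.81 (4.25 to 5.43) and 4.25 (3.70 to 4.86) in CND1-FLAG replicates 1 and 2, and 2.1 (1.85 to 2.37) and 2.14 (1.89 to 2.43) in Col-0 replicates 1 and 2. The tagged summits rested on 263 and 212 fragments where 53.8 and 49.1 were expected, and the Col-0 summits on 248 fragments each where 118 and 115 were expected. Both tagged folds were above both Col-0 folds, and their intervals did not overlap. This region ranked 126 among the 8049 nuclear regions of both tagged lists, the rank being the worse of its ranks by fold in the 2 lists.

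Next came UGT74C1 (AT2G31790), a glucosyltransferase of glucosinolate synthesis. Its region at chr2:13518184-13518702, with the summit 253 bp inside the gene, had folds of 4.25 (3.59 to 5.0) and 4.51 (3.79 to 5.33) in the tagged lists, against 2.22 (1.89 to 2.59) and 2.56 (2.21 to 2.95) in Col-0. The long non-coding RNA locus AT2G08470, which lies within UGT74C1 on the opposite strand, had a region at chr2:13518926-13520141, with folds of 3.45 and 3.33 in the tagged lists, against 1.77 and 1.93 in Col-0. At both regions the tagged folds lay above the Col-0 folds, and both regions lie at least partly within UGT74C1.

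The other 5 of the 8 best-ranked shared regions were weaker. UGT76E3 (AT3G46700) had folds of 2.88 and 2.46 in the tagged lists, no peak in Col-0 replicate 1 and 2.04 in Col-0 replicate 2, at a summit 1367 bp before its start. AT3G21755, a long non-coding locus at UGT71B2, had 2.55 and 2.56 in the tagged lists, 1.68 in Col-0 replicate 1 and no peak in Col-0 replicate 2. Its second shared region had 1.88 and 1.45 in the tagged lists and 1.47 in Col-0 replicate 1. The region that spans UGT72C1 (AT4G36770) and the non-coding locus AT4G09385 had 2.71 and 2.36 against 1.69 and 1.71. UGT72E3 (AT5G26310) makes glucosides of lignin precursors. Its folds were 2.36 and 2.25 against 1.58 and 1.78. UGT78D1 (AT1G30530) is described with the flavonoid genes. In each of these 5 regions the tagged folds were above the Col-0 folds that were called. At the second shared region of AT3G21755 the genotypes overlapped.

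**Figure D2:**
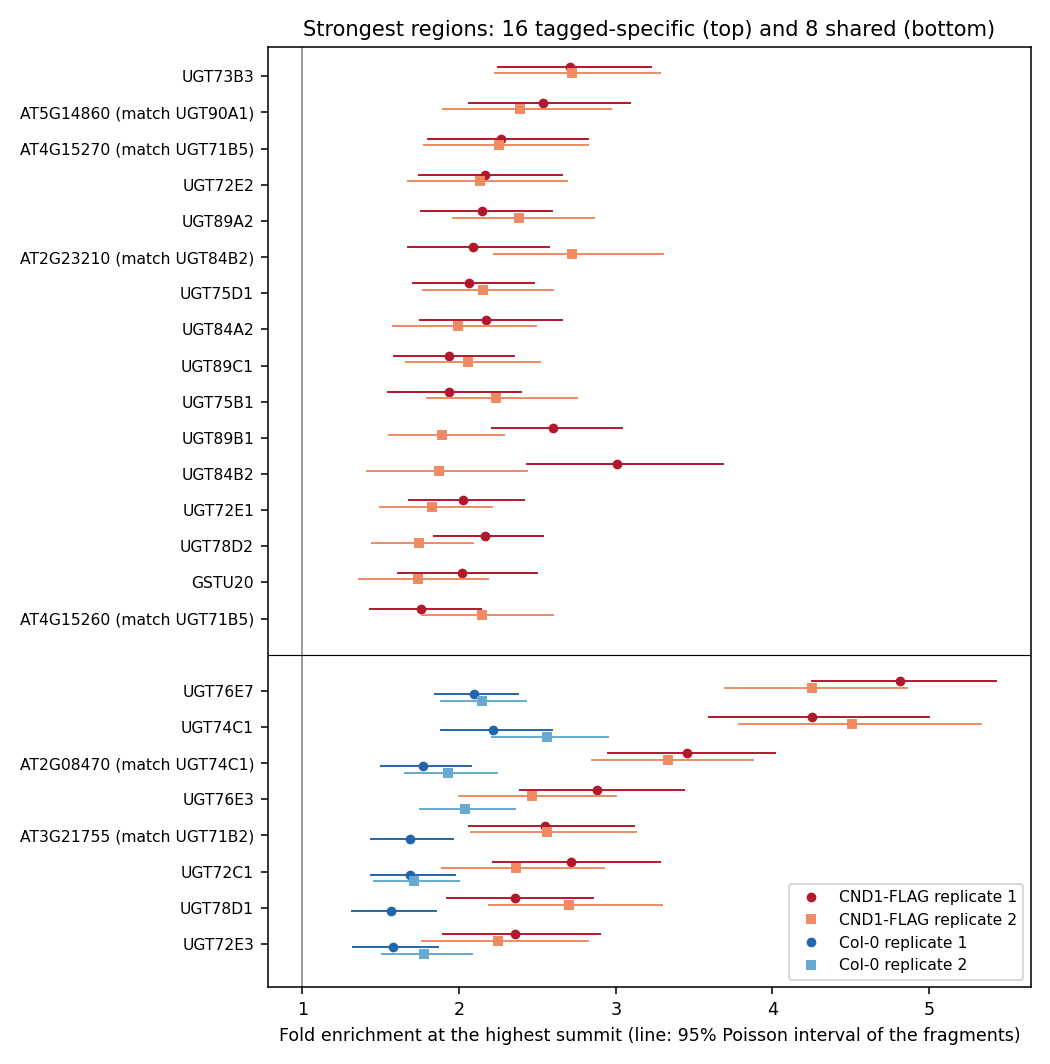
Points give the fold enrichment of the highest summit in each list, and lines its 95% Poisson interval, for the 16 best-ranked tagged-specific regions (top) and the 8 best-ranked shared regions (bottom). Loci whose description is a match to another gene's protein are marked as such. UGT76E7 and UGT74C1 stand above 4 in both tagged lists, while the tagged-specific regions lie between 1.74 and 3.01.

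Such differences are not particular to these families. Over the 23 member regions called in all 4 lists, both tagged folds exceeded both Col-0 folds in 15, or 65.2%, against 67.8% of the 2426 such regions over all nuclear genes. The median ratio of the mean tagged to the mean Col-0 fold was 1.22 for members and 1.2 for all. The ratio ran from 0.865 to 2.14 among members. Since depth differs between the lists and the input used for each is not given, no test was made of 1 list's folds against another's.

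The opposite order was seen at GSTF8 (AT2G47730), a stress-induced chloroplast GST. A region inside the gene, chr2:19558218-19559373, had folds of 2.57 and 2.06 in the tagged lists, against 2.74 and 2.62 in Col-0. Of its peaks only that of CND1-FLAG replicate 2 was assigned to GSTF8, so the counts of members by list above hold GSTF8 in that list alone. The strongest tagged peak was assigned to the neighbour AT2G47740. This region was the only 1 of the 23 with both tagged folds below both Col-0 folds, 4.35% against 6.6% of all. The intervals of CND1-FLAG replicate 1 (2.13 to 3.07) and of Col-0 replicate 1 (2.40 to 3.12) overlap.

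Among the tagged-specific regions the best-ranked lay at UGT73B3 (AT4G34131), a stress-induced UGT linked to pathogen resistance. It spanned chr4:16345376-16345991, upstream of UGT73B3 and over its tandem neighbour UGT73B2 (AT4G34135). Its folds were 2.71 (2.25 to 3.23) and 2.72 (2.23 to 3.28) in CND1-FLAG replicates 1 and 2, on 122 and 106 fragments where 44.4 and 38.4 were expected. No Col-0 peak overlapped it. A shared region inside UGT73B3, which it has in common with the non-coding locus AT4G08935, had 1.65 and 1.98 in the tagged lists, against 1.70 and 1.66 in Col-0. The tagged-specific region ranked 762 of the 8049 regions of both tagged lists, and 110 of the 4011 tagged-specific ones. The members' strongest tagged-specific region was thus not among the very strongest of the genome.

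The next were at AT5G14860, a UGT90A1-like gene, with folds of 2.54 and 2.39, and at AT4G15270, described as UGT71B5, with 2.27 and 2.26. UGT89A2 (AT5G03490) had 2.15 and 2.38, and AT2G23210, described as UGT84B2, had 2.09 and 2.72. UGT84B2 itself (AT2G23250) had 3.01 (2.43 to 3.68) in replicate 1 and 1.87 (1.41 to 2.43) in replicate 2, where the intervals lie side by side without overlap. UGT89B1 (AT1G73880) had folds of 2.60 and 1.89, with intervals that overlap. AT4G15260, described as UGT71B5, had 1.76 and 2.15. Among the 16 best-ranked tagged-specific regions, UGT84B2 was the only one whose replicate intervals did not overlap.

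Over all 32 tagged-specific member regions the median fold was 1.94 and 1.83 in replicates 1 and 2, against 1.94 and 1.91 over all 4011 such regions. The lowest folds were 1.4 and 1.48 and the highest 3.01 and 2.72 in replicates 1 and 2. They rested on 72 to 155 fragments in replicate 1 and 49 to 116 in replicate 2. A fold of at least 2 in both tagged lists was reached by 7 of the 32 regions, 21.9% against 28.9% of all. Over the 40 shared regions the tagged medians were 2.04 and 2.02, against 2.03 and 1.97 over all shared regions, and the Col-0 medians were 1.68 and 1.67, against 1.68 in each list. Most member regions were therefore of ordinary strength. With folds near 2 on some 80 fragments, the absence of a call in a Col-0 list says that no summit passed there and not that no enrichment was present.

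**Figure D3:**
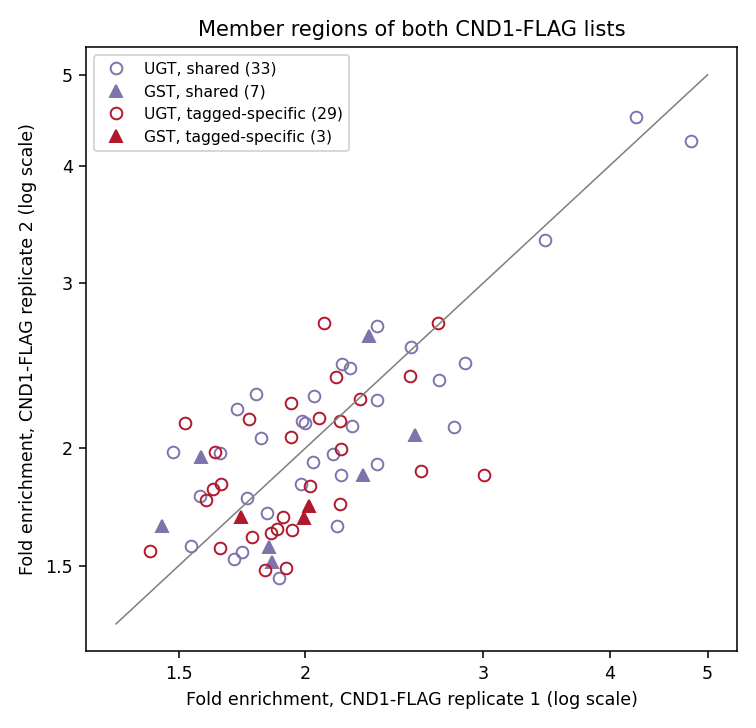
Each point is 1 of the 72 member regions called in both CND1-FLAG lists, with its fold enrichment in replicate 1 (x axis) and replicate 2 (y axis), both on log scales, and a line of equal folds. Circles are UGT and triangles GST regions, and the 3 points above 3 in both lists are the regions of UGT76E7, UGT74C1 and AT2G08470, all of them shared.

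A group of 5 flavonoid glycosyltransferases, put together by function and without the UGT79 members, had a region of both tagged lists at 5 of 5, with a tagged-specific region at 3 and a shared one at 2. UGT78D1, which adds rhamnose to the 3 position of flavonols, had folds of 2.36 and 2.70 in the tagged lists, 1.57 in Col-0 replicate 1 and no peak in Col-0 replicate 2 at chr1:10814844-10815443. A second shared region in the same gene had 1.71, 2.20, 1.81 and 1.71 in the 4 lists, so that there the genotypes overlapped. UGT78D2 (AT5G17050), the flavonoid 3-O-glucosyltransferase, had a tagged-specific region with folds of 2.17 and 1.75. UGT89C1 (AT1G06000), which adds rhamnose to the 7 position, had 1.94 and 2.06. UGT75C1 (AT4G14090), the anthocyanin 5-O-glucosyltransferase, had 1.92 and 1.49 in a tagged-specific region that it shares with the non-coding locus AT4G06175. Another tagged-specific region assigned to that locus, also within UGT75C1, had 1.77 and 1.61. The count of 5 is small, and 56% of all assigned genes had such a region. None of the 6 UGT79 members left out of the group had one, and the group was chosen with earlier results known.

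UGT78D2, UGT78D3 and UGT78D4 stand side by side within chr5:5603133-5609589, with starts 4.70 kb apart at most. Their array held 6 regions, of which 4 were shared, 1 was tagged-specific and 1 was held by Col-0 replicate 2 alone, at a fold of 1.52. UGT78D3 (AT5G17030), the flavonol arabinosyltransferase, had its strongest region 1297 bp inside the gene, with folds of 2.81 and 2.11 in the tagged lists, against 1.48 and 1.54 in Col-0. Its second region, near its start, had 2.04 and 1.93 against 1.60 and 1.46. UGT78D4 (AT5G17040) had 1.98 and 1.83 against 1.46 and 1.53 in the gene. Its upstream region, which lies over the neighbouring UGT78D2, had 2.0 and 2.13 in the tagged lists and 1.38 in Col-0 replicate 1. In each of these 4 shared regions the tagged folds were above those of Col-0.

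The UGTs of hydroxycinnamates and lignin precursors numbered 7, of which 5 had a region of both tagged lists, as did 56% of all assigned genes. UGT84A2 (AT3G21560), the sinapate glucosyltransferase, had a tagged-specific region with folds of 2.17 and 1.99, 1462 bp inside the gene. UGT72E1 (AT3G50740) and UGT72E2 (AT5G66690) glucosylate coniferyl and sinapyl compounds. UGT72E1 had a tagged-specific region with 2.02 and 1.82. UGT72E2 had 2 tagged-specific regions, with 2.17 and 2.14 near its start and 1.82 and 1.48 farther inside. UGT84A1 (AT4G15480) had a shared region with 1.81 and 2.05 in the tagged lists, against 2.06 and 1.73 in Col-0, so the genotypes overlapped there. UGT84A3 and UGT84A4 had no region of both tagged lists.

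Of the 12 UGTs of hormones, 5 had a region of both tagged lists, 4 tagged-specific and 1 shared, while 2 had a region of both Col-0 lists only. Over all assigned genes 56% had a region of both tagged lists, 29.3% a tagged-specific and 30.7% a shared one, and 4.47% one of both Col-0 lists only. UGT75D1 (AT4G15550), which acts on indole-3-butyrate, had a tagged-specific region with 2.06 and 2.16. UGT75B1 (AT1G05560) and UGT75B2 (AT1G05530), related enzymes, had 1.94 and 2.24, and 1.88 and 1.64. UGT71C5 (AT1G07240), an abscisic acid glucosyltransferase, shared a region with its neighbour UGT71C4 at 1.83 and 1.71 in the tagged lists, against 1.61 and 1.37 in Col-0. The 2 salicylate glucosyltransferases fell into different classes. UGT74F2 (AT2G43820) was called in both tagged lists only, with 1.52 and 2.13, and UGT74F1 (AT2G43840) in both Col-0 lists only, with 1.46 and 1.51. The brassinosteroid glucosyltransferase UGT73C5 (AT2G36800) had 1 peak, with a fold of 1.98 in Col-0 replicate 1.

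Of 7 members that act in glucosinolate synthesis, 4 had a region of both tagged lists, against 56% of all assigned genes. Besides UGT74C1, these were GSTU13 (AT1G27130), GSTU20 (AT1G78370) and GSTF9 (AT2G30860). GSTU13 had a shared region with 2.31 and 2.63 in the tagged lists, 1.64 in Col-0 replicate 1 and no peak in Col-0 replicate 2. GSTU20 had a tagged-specific region with 2.02 and 1.74, and GSTF9 one with 1.73 and 1.69. UGT74B1 (AT1G24100), which glucosylates thiohydroximates, had 1 peak, with a fold of 1.74 in CND1-FLAG replicate 2.

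Counts by UGT family can be read against the 29.3% of all assigned genes with a tagged-specific and the 30.7% with a shared region. Of the 6 UGT75 members, 5 had a tagged-specific region and none a shared one, with 1 of the regions common to UGT75C1 and AT4G06175. Of the 4 UGT89 members 3 had a tagged-specific and none a shared one. Of the 11 UGT76 members, which include BOA by its description, 4 had a shared region and none a tagged-specific one. None of the 6 UGT79 members, which include glycosyltransferases of flavonoid glycosides, had a region of both tagged lists, and UGT79B11 (AT1G64920) was called in both Col-0 lists only, at 1.68 and 2.07. UGT71 was the largest group with 16 members, of which 7 had a tagged-specific and 5 a shared region. These members include the non-coding loci AT3G21755 and AT3G21781, and UGT71C4 and UGT71C5 have a shared region in common. UGT72 followed with 9 members, 3 tagged-specific and 5 shared, with 1 shared region common to UGT72C1 and the non-coding locus AT4G09385. The families were not tested against each other. Copies of a tandem array are similar in sequence, and how reads that match several copies were placed is not given in the sources used here, so the calls within an array may not be separate measurements.

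The GST side can be set against the whole family, since the gene table names 52 GST and dehydroascorbate reductase loci. Peaks of any list were assigned to 15 of them, 28.8%, against 41.5% of all protein-coding nuclear genes. A region of both tagged lists was found at 8, 15.4% against 23.2%. By class, 4 of 28 tau, 3 of 13 phi and 1 of 3 dehydroascorbate reductase loci had such a region. None of the 3 theta, 3 lambda and 2 zeta loci was assigned a peak. The tau GSTs GSTU1 to GSTU7 lie together on chromosome 2, and of those 7 only GSTU5 was assigned a peak in any list. These 52 loci were not chosen from the peak lists, so that their share is not raised by the choice.

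GSTF2 (AT4G02520), a phi GST, had a tagged-specific region with folds of 2.0 and 1.69 and a shared one with 1.58 and 1.96 in the tagged lists and 1.4 in Col-0 replicate 2. Both lie over the neighbouring gene TOC159 (AT4G02510), a receptor for protein import into chloroplasts. The tagged-specific region also lies within GSTF2 and cannot be given to 1 of the 2 genes. The shared region lies beyond the end of GSTF2, with its summit 2927 bp from the start of GSTF2. GSTU14 (AT1G27140) had 1.85 and 1.51 in the tagged lists and 1.42 in Col-0 replicate 2. GSTU22 (AT1G78340) was assigned a region with 2.28 and 1.87 in the tagged lists, against 1.81 and 1.60 in Col-0. That region overlaps the neighbour AT1G78350 and not GSTU22, with its summit 1247 bp before the start of GSTU22. DHAR3 (AT5G16710), the chloroplast dehydroascorbate reductase, was assigned a region with 1.84 and 1.57 in the tagged lists and 1.81 in Col-0 replicate 1. It overlaps the neighbour AT5G16700 and not DHAR3, with its summit 1043 bp before the start of DHAR3. Apart from GSTU13 and GSTF8, no GST region of both tagged lists exceeded the 2.28 of GSTU22 in either tagged list.

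Of the members, 9 had a region of both Col-0 lists in which no tagged list had a peak, 7.96% against 4.47% of all assigned genes. The strongest of these were GSTs. GSTU18 (AT1G10360) had 2.20 (1.91 to 2.51) and 2.28 (1.99 to 2.60) in Col-0 replicates 1 and 2 in the gene. It had 2.04 and 1.76 just upstream, in a region within the neighbouring GSTU17. GSTU5 (AT2G29450) had 2.03 and 2.37. The other 7 were UGTs: UGT74E1, UGT85A3, UGT85A1, UGT74F1, UGT79B11, UGT76F2 and UGT76E9. UGT85A1 (AT1G22400), which glucosylates the cytokinin zeatin, had 1.69 in each Col-0 list. UGT74E1 (AT1G05675) had 1.60 and 1.47. UGT85A3 (AT1G22380) had 1.34 and 1.41, in a region that lies within the neighbouring UGT85A1. UGT76F2 (AT3G55710) had 1.84 and 1.82, and UGT76E9 (AT5G38010) 1.89 and 1.82. In these regions the untagged, deeper libraries gave a call and the tagged libraries none, and the part of depth in this was not tested. UGT76F2 was also assigned a shared region, which lies 769 bp before its start and within the neighbouring UGT76F1. That region had 2.04 and 2.27 in the tagged lists and 1.62 in Col-0 replicate 1. The neighbour of GSTU18, GSTU17 (AT1G10370), had 1.62 in CND1-FLAG replicate 1 and 1.73 and 2.13 in the Col-0 lists.

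Many members lie close together, and 76 of the 113 fell into 26 groups in which each start is within 25 kb of that of a neighbouring member. In 23 of the 26 groups at least 2 protein-coding members were of the same family. The others were a UGT with the non-coding locus on its opposite strand, or UGT76E1 with BOA, and some groups mix UGT families or UGT and GST genes. Of these 57.9% had a region of both tagged lists, against 54.1% of the 37 members outside such groups. In 5 groups at least 3 members had one. The group of UGT71C3, UGT71C4 and UGT71C5 held 2 tagged-specific regions, at UGT71C4 with 1.94 and 1.64 and at UGT71C3 with 1.90 and 1.69. The group of AT4G15260, AT4G15270 and UGT71B5 held 3 tagged-specific and 1 shared region. UGT71B5 (AT4G15280) had 1.62 and 1.81 in the tagged-specific one, and 1.54 and 1.57 against 1.84 in Col-0 replicate 2 in the shared one. A further region of AT4G15260 had 1.37 in CND1-FLAG replicate 1 and 1.35 and 1.48 in Col-0 replicates 1 and 2.

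The UGT85A array within chr1:7890259-7906969, which holds 5 members, had the most regions of any group. Its 11 regions comprised 1 tagged-specific, 3 shared and 2 of both Col-0 lists only. The region before UGT85A7 (AT1G22340) had 2.17 and 2.46 in the tagged lists, against 2.18 and 2.13 in Col-0. At UGT85A2 (AT1G22360), the region near the start had 2.22 and 2.44 against 1.71 and 1.75, and the one at the far end of the gene had 1.70 and 1.52 against 1.72 and 1.60. The tagged folds thus exceeded those of Col-0 at 1 of the 3 shared regions, and the genotypes overlapped at the others. The tagged-specific region, assigned to UGT85A5 (AT1G22370) from upstream and lying over UGT85A3, had 1.65 and 1.56. In 5 further regions of the array only 1 of the tagged lists had a peak, with folds between 1.65 and 2.29. Apart from the one inside UGT85A5, at 1.65, these were also called in 1 or both Col-0 lists, with Col-0 folds from 1.42 to 1.88. The remaining group, on chromosome 1, holds the UGT85A4 locus with GSTU20, GSTU21 and GSTU22. Its other tagged-specific region, at the non-coding locus AT1G78265 by UGT85A4, had 1.85 and 1.63. UGT85A4 (AT1G78270) itself had 1.96 in CND1-FLAG replicate 1 and 1.60 in Col-0 replicate 1. GSTU21 (AT1G78360) was assigned a peak with 2.06 in CND1-FLAG replicate 2 alone. That peak lies beyond the end of GSTU21, 3858 bp from its start, and overlaps the locus AT1G78355.

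**Figure D4:**
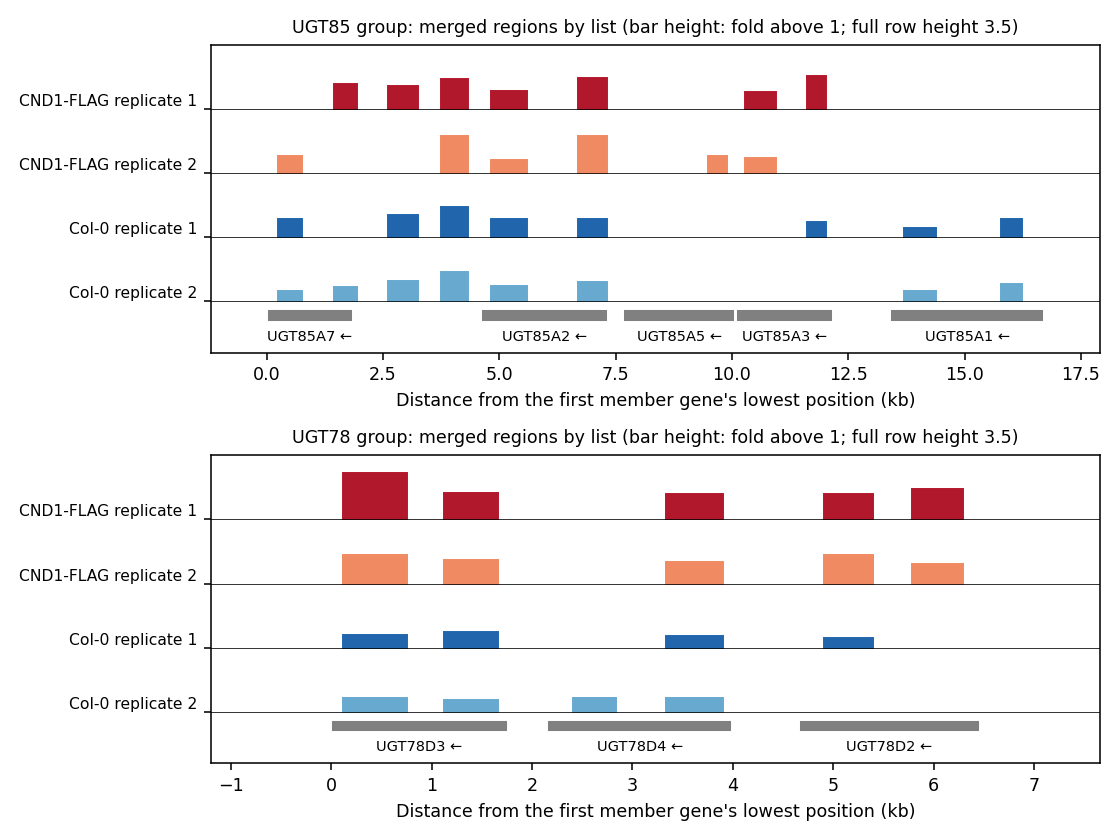
Merged regions of the UGT85A array (top) and the UGT78D array (bottom) are drawn as bars in a row for each list, against the distance in kb from the lowest position of the first member gene, with member genes in grey and arrows for their strand. Bar height is the fold enrichment above 1. In the UGT78D array the regions of both tagged lists lie over the 3 genes, and in the UGT85A array bars of all 4 lists stand at the same places before UGT85A7 and over UGT85A2.

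Members outside these groups also had several regions of both tagged lists. UGT88A1 (AT3G16520) had 2 shared regions, with 1.48 and 1.98 against 1.65 in Col-0 replicate 2 in one, and 1.73 and 1.55 against 1.54 and 1.69 in the other. Both lie inside the gene, and the strongest tagged peak of the first was assigned to the neighbour AT3G16510. UGT72B1 (AT4G01070), which glucosylates chlorinated phenols and monolignols, had a tagged-specific region with 1.63 and 1.98 and a shared one with 1.57 and 1.78 against 1.47 in Col-0 replicate 2. Including these, 13 members had at least 2 such regions.

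A few other shared regions, picked after their values were seen, are given here. UGT76F1 (AT3G55700) had 1.99 and 2.14 in the tagged lists, against 1.74 and 1.61 in Col-0. The region upstream of UGT73B4 (AT2G15490), within the locus of its neighbour UGT73B5 (AT2G15480) as annotated, had 2.13 and 1.97, against 1.65 and 1.72. UGT72D1 (AT2G18570) had 1.79 and 2.29, against 1.59 and 1.51. At these the tagged folds were the higher ones, whereas at UGT90A1 (AT2G16890) the genotypes overlapped, with 2.35 and 1.93 against 2.09 and 1.87. They also overlapped at the region assigned to TCHQD (AT1G77290), with 1.44 and 1.65 in the tagged lists and 1.59 in Col-0 replicate 2. That region lies beyond the end of TCHQD and overlaps the neighbour EFS (AT1G77300). Median folds of the tagged-specific member regions were 1.94 and 1.83 in replicates 1 and 2. Those of the 25 member regions of 1 tagged list alone were somewhat lower, with overlapping ranges. The 12 of CND1-FLAG replicate 1 had a median fold of 1.82 and ran from 1.52 to 2.22 (UGT90A2), and the 13 of replicate 2 had a median of 1.79 and ran from 1.44 to 2.44 (UGT79B9).

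The place of the summits within the genes is given beside that of all nuclear regions of both tagged lists, with no test. It is counted from the gene to which the strongest tagged peak was assigned, which for 2 of the 72 member regions, those of GSTF8 and UGT88A1 named above, is a neighbour that is no member. Of the 72 member regions of both tagged lists, 55 (76.4%) were annotated within 1 kb of the assigned start, against 69.7% of all. The strongest summit lay inside the gene in 53 (73.6% against 67.4%), upstream in 14 (19.4% against 22.5%) and beyond the end in 5 (6.94% against 10.1%). The summits had 2 concentrations, a common one in the first 1000 bp of the gene (32 regions, 44.4% against 50.2% of all) and another 1000 to 1500 bp inside it. The latter held 20 of the 72 regions, 27.8% against 8.08% of all, a window chosen after its values were seen. It held 13 of the 32 tagged-specific member regions (40.6% against 7.16% of all tagged-specific regions) and 7 of the 40 shared ones (17.5% against 8.99%). UGT84A2, UGT72E1, UGT89A2, UGT89C1, UGT84B2, UGT74F2, UGT71C1 and UGT78D3 were among them. For cytochrome P450 genes the same window held 7 of 80 regions, 8.75%.

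The late summits were also present without the tag. Their share of the member peaks was 28.1% and 23.7% in CND1-FLAG replicates 1 and 2 and 21.5% and 20.3% in Col-0 replicates 1 and 2, against 7.95%, 7.9%, 9.61% and 9.93% of all nuclear peaks in the same lists. Gene length moved with them. Genes of 1500 to 2000 bp carried 61.1% of the member regions but 17.3% of all regions. Among regions at genes of that length, 34.1% of the members (15 of 44) and 17.2% of all (239 of 1393) had a summit in the window. The part of the similar gene structure of UGTs in this was not tested further.

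**Figure D5:**
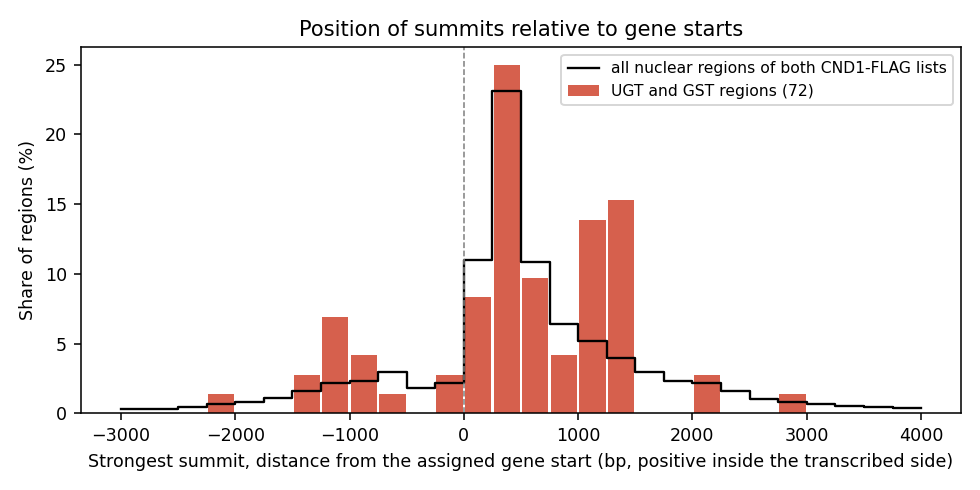
Bars give the share of the 72 member regions of both tagged lists, in percent, by the distance of the strongest summit from the assigned gene start in steps of 250 bp, positive toward the gene's transcribed side, and the line gives the same for all 8049 regions of both tagged lists. Both have their highest step at 250 to 500 bp, with 25% of the members, and the members have a second rise between 1000 and 1500 bp.

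Other genes of conjugation were taken from a list of 27 loci for glutathione supply and breakdown, vacuolar transport, UDP-sugar supply, oxophytodienoate reductases and regulators. A region of both tagged lists was found at 8 of the 27, 5 had other regions and 14 had none in any list. Of all protein-coding nuclear genes, 23.2% had a region of both tagged lists and 41.5% were assigned a peak in any list. The strongest was OPR3 (AT2G06050), a reductase of jasmonate synthesis, with 2 shared regions. The first had folds of 5.22 and 4.56 in the tagged lists, against 2.25 and 2.17 in Col-0, and the second 2.92 and 3.20 against 2.26 and 1.69. OPR2 (AT1G76690), a related reductase, had 2.01 and 1.81 against 1.84 and 1.63. Both OPR3 regions had tagged folds above those of Col-0, while the genotypes overlapped at OPR2.

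GR1 (AT3G24170), the cytosolic glutathione reductase, had a shared region with 2.39 and 2.16 against 1.86 and 1.76, and a tagged-specific one with 2.22 and 2.02. GGT4 (AT4G29210), which breaks down glutathione conjugates, had a tagged-specific region with 1.79 and 1.46. ABCC1 (AT1G30400), a vacuolar transporter of glutathione conjugates, had a shared region with 1.90 and 2.26 in the tagged lists and 1.59 in Col-0 replicate 2. The UDP-glucose dehydrogenases UGD2 (AT3G29360) and UGD3 (AT5G15490) had shared regions in which the genotypes overlapped, with 1.51 and 1.48 against 1.41 and 1.67, and 1.74 and 1.67 against 1.70 and 1.69. Both glutathione synthesis genes, GSH1 and GSH2, had no region. Among 8 regulators, SCL14 (AT1G07530), a GRAS factor of xenobiotic response, alone had a region of both tagged lists, with 1.4 and 1.86 against 1.39 and 1.85. TGA4 had 1 region of another class, and TGA1, TGA2, TGA3, TGA5, TGA6 and NPR1 had none.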

How the data were processed

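Per the submitters' processing notes, reads were handled with fastp 0.19.11, BWA 0.7.12 and MACS2 2.1.0 on TAIR10, and the authors deposited 1 list of annotated summits for each of the 4 ChIP libraries. For the input and the threshold, the choice made is not given in the sources used here. In each list the deposited signal is a ratio, namely fold enrichment over local background. Significance was deposited by the authors as −log10 of p and q, with 1.30 as the lowest −log10 q of any list. Per the file headers there is also a score, which equals −log10 q times 10 without its decimals. Positions are in bp.

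Summit lines of 1 peak were joined, and peaks of the lists that overlapped by at least 1 bp were merged. Solving fold and p for the pile-up, to within 0.001 of −log10 p, gave whole numbers for 15219 of 15221, 12126 of 12127, 7116 of 7131 and 6568 of 6569 summits, with the Col-0 lists scaled by 0.723 and 0.739. A TAIR10.1 gene table, which holds all 12573 assigned genes, was used for names, gene types and neighbours. The steps were tested on simulated data, with Python 3.11.15, pandas 2.3.3 and SciPy 1.17.1.

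The libraries were compared by an exact permutation test, and all other counts are descriptions beside those of all regions or genes. Members, gene roles, the list of 27 genes and the tests were chosen with earlier results of these data known. Values are given for the 16 best-ranked tagged-specific and 8 best-ranked shared regions, members with at least 2 regions of both tagged lists, tandem groups with at least 3 such members, members called in both Col-0 lists only, and genes of the list. Other genes with values, such as BOA, GSTF8, GSTF9, GSTU13, GSTU14, GSTU17, GSTU22, DHAR3, UGT84A1, UGT76F1, UGT72D1, UGT90A1, TCHQD, UGT75B2, UGT74F2, UGT74B1 and UGT73C5, were picked after their values were seen. Planned motif counts in promoters are left out, since no sequence is used here. Alternatives were stricter peaks, lists of equal length, reciprocal overlap, a wider distance to Col-0 peaks, peaks within 1 kb, and leaving out each library.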

Additional observations from a re-analysis of the deposited data

How the results depend on the processing

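The number of members with a peak stayed higher in tagged plants by 32 genes with −log10 q of at least 5, by 28 with fold of at least 2 and by 21.5 with peaks within 1 kb of a start, each with exact permutation p = 0.333. In the tagged and then the Col-0 lists, −log10 q of at least 5 left 58, 46, 20 and 20 members with a peak. All nuclear peaks then numbered 7766, 5389, 1936 and 1887. Fold of at least 2 left 38, 34, 8 and 8 members, and 5357, 4099, 753 and 722 nuclear peaks. With lists of equal length, which makes the number of peaks the same in each, the difference was -0.5 genes (exact p = 1). Leaving out 1 library at a time gave 24.5 to 25.5 more genes. With the replicate numbers as a block the difference was 25 genes (exact sign-flip p = 0.5, the smallest that 2 pairs allow). The labels do not say whether a replicate number marks a shared batch. Same-numbered deviations had r = -0.0238 over 2426 regions, which cannot show whether the libraries were paired. Members with a tagged-specific region numbered 17 with fold of at least 2 and 12 with lists of equal length, against 31, and 36 to 41 with 1 library left out. Members with a shared region numbered 15 with −log10 q of at least 5, 5 with fold of at least 2 and 22 with lists of equal length, against 38, and 29 to 47 with 1 library left out. Over all nuclear regions, tagged-specific ones numbered 2154 with fold of at least 2 and 1610 with lists of equal length, against 4011. Shared ones numbered 1248, 496 and 1845 in the settings just named, against 4038. With 1 library left out, tagged-specific regions numbered 4720 to 7642 and shared ones 3121 to 5185. The share of member regions within 1 kb of a start stayed between 73.6% and 81.8%. Over all nuclear regions it ran from 64%, without CND1-FLAG replicate 2, to 80.2%, with lists of equal length. Of the 26 named tagged-specific and 25 named shared regions, 12 and 12 kept their class with lists of equal length, 7 and 4 with fold of at least 2, and 14 and 9 with −log10 q of at least 5. The share of member peaks with late summits, tried after its value was seen, was 22.5% to 25.9% in the tagged lists with stricter or equal lists and 0% to 20.8% in the Col-0 lists, where 0 of 8 peaks remained in 1 list at fold of at least 2. Why calls fell under stricter lists was not tested, beyond there being fewer peaks. The tagged-specific regions rest on 49 to 155 fragments, and depth was not varied.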
